A study of Homo sapiens with 12 samples.

Results

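The genes described are 10 that encode telomerase and the proteins that protect and unwind chromosome ends: TERT, DKC1, PIF1, RTEL1, TERF1, TERF2, TERF2IP, POT1, TINF2 and ACD. They were chosen by name, all 10 were among the 58735 genes of the count table, and all 10 passed the filter on low counts that left 17094 genes to test. The libraries came from poly(A) RNA of A549, an established line of non-small cell lung cancer, in 4 groups of 3: shTRIM22 irradiated, shTRIM22 sham, shControl irradiated and shControl sham. All cells carried a stable short hairpin RNA, either against TRIM22, a ubiquitin ligase of the tripartite motif family, or a control hairpin. Irradiated cells were taken 3 days after ionizing radiation, and the rest had a sham exposure. The labels name 1 hairpin against TRIM22, give no radiation dose, and do not say whether each population is a pool or a clone. The effect of the hairpin's target therefore cannot be told apart from other differences between the populations, and "knockdown" below means shTRIM22 against shControl cells. The study describes its replicates as biological but names no separate cultures, so the spread behind each p-value may be partly technical.

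Telomerase adds the telomeric repeat to chromosome ends. TERT is its reverse transcriptase and the limiting subunit in most human cells, and dyskerin, the product of DKC1, binds and stabilises the telomerase RNA as it does the box H/ACA RNAs of the nucleolus. Shelterin is the complex of 6 proteins that hides the chromosome end from the damage response: TRF1 and TRF2 (genes TERF1 and TERF2) bind the double-stranded repeat, RAP1 (TERF2IP) sits on TRF2, TIN2 (TINF2) joins the subunits, and TPP1 (ACD) carries POT1 to the single-stranded overhang and recruits telomerase. PIF1 and RTEL1 are helicases that unwind telomeric DNA, among other substrates. Most carcinoma lines keep their telomeres with telomerase.

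Promoter sequences are shown for PIF1 and ACD, the members that were lower after irradiation in both populations and whose windows held a motif of genes tied to the cell cycle. Each runs 5′ to 3′ from 250 bases before the annotated start to 50 bases after it, from RefSeq on GRCh38.p14. The PIF1 window is chr15:64825598-64825897 and the ACD window chr16:67660211-67660510, both on the minus strand. Capitals mark the CCAAT box (CCAAT), the cell cycle homology region, CHR (TTTGAA), and 4 spellings of an E2F site (TTTCCCGC, TTTCGCGC, TTTGCCGC and TTTGGCGC), each searched on both strands.
PIF1: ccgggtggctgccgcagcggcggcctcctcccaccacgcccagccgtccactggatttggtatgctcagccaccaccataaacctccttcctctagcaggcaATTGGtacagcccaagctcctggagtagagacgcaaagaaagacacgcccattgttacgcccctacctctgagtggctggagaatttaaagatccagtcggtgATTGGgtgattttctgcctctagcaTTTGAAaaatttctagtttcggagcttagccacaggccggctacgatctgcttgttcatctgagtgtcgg
ACD: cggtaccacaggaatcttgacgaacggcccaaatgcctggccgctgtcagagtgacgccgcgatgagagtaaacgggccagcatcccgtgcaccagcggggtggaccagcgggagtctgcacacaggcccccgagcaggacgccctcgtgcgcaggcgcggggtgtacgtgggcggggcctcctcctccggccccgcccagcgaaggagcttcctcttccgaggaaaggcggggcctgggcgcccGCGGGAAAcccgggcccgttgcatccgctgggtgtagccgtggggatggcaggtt

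In the PIF1 window a CHR began at base -20 and CCAAT boxes, in reverse orientation, at -148 and -45. In the ACD window 1 E2F site, in reverse orientation, began at base -5. The ACD gene as counted here begins further upstream, at base 67660815 of chromosome 16, and the sequence before that start was not searched. Among 27305 promoters of the same length, 15.4% held a CHR, 35.7% a CCAAT box and 3.3% an E2F site in these spellings. Of the 10 members, 8 had a window in the table. TINF2 also held a CCAAT box, and the CHR and the E2F spellings were found in no other member's window. DKC1, also called lower after irradiation in both populations, had no CHR, E2F spelling or CCAAT box in its window. The window of TERT held 1 E-box (CACGTG, the site of MYC with MAX) at -163, a motif in 7.4% of promoters. The GC box (GGGCGG), present in 44.6% of promoters, was found in the windows of TERT, POT1, TINF2, ACD, TERF2IP, RTEL1 and DKC1 and not in that of PIF1. These matches describe letters in a window and were not tested as sites.

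Total counts per library ran from 14468386 to 17872154. TRIM22 itself was at 1.35 to 2.47 CPM (counts scaled to library size by TMM) in shTRIM22 irradiated and 16.6 to 18.5 CPM in shControl irradiated libraries, and at 0.293 to 0.326 CPM in shTRIM22 sham and 1.76 to 2.83 CPM in shControl sham libraries. The 5 epithelial markers (KRT8, KRT18, KRT19, EPCAM, CDH1) summed to 4169 to 8337 CPM. Most of this sum was KRT8 and KRT18, and KRT19 gave 2 to 20 counts per library. The 3 alveolar markers (NKX2-1, SFTPB, SFTPC) summed to at most 0.845 CPM, near 0, so the alveolar type was not seen in its markers. The 3 blood markers summed to at most 0.260 CPM, with 1 at 0 counts throughout, the 3 endothelial markers to 3.84 to 12.0 CPM and the 4 fibroblast markers to 5.59 to 10.9 CPM. Endothelial markers summed to 8.49 to 12.0 CPM in shTRIM22 irradiated libraries and 3.84 to 4.86 CPM in all others. The fibroblast sum was 8.62 to 10.9 CPM in shTRIM22 irradiated and 5.59 to 9.67 CPM in all others. Single markers moved with the groups: the endothelial cadherin gene CDH5 averaged 4.51 CPM in shTRIM22 irradiated and 0.465 CPM in shControl irradiated libraries, and 1.58 CPM in shTRIM22 sham libraries, against 1 or 2 counts per library in shControl sham. LUM, a fibroblast marker, averaged 3.23 CPM in shTRIM22 irradiated and 0.858 CPM in shControl irradiated libraries. The epithelial cadherin gene CDH1 averaged 72.8 CPM in shTRIM22 irradiated and 287 CPM in shControl irradiated libraries, and 44.4 CPM in shTRIM22 sham and 215 CPM in shControl sham libraries. CDH5, LUM and CDH1 passed the test in the comparisons named. Other epithelial markers went the other way from CDH1 with knockdown. Without irradiation KRT18 (log2 fold change 0.94), KRT8 (0.68) and EPCAM (0.78) were called higher, and after it KRT18 (0.35) was. The part of these markers in the members' results was not tested. The share of counts from the mitochondrial genome was 2.67% in shTRIM22 sham replicate 3 and 9.12% to 14.4% in the other 11 libraries. Members' results that this library moves are therefore given with and without it.

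Levels per kilobase of exons differed widely between members. DKC1 had the highest mean in every group, at 25.0 ± 0.531 CPM per kb in shTRIM22 irradiated, 40.5 ± 7.21 in shTRIM22 sham, 20.6 ± 0.701 in shControl irradiated and 26.3 ± 1.06 in shControl sham libraries (mean ± SD, n = 3). In shTRIM22 irradiated libraries its range overlapped that of TERF2IP (23.5 ± 1.23 CPM per kb). RTEL1 stood lowest in every group, from 0.189 to 0.247 CPM per kb. Its level and rank are uncertain, because 70.2% of its exonic bases are shared with RTEL1-TNFRSF6B on the same strand. In shControl sham libraries the order below DKC1 was TERF2IP (15.6 ± 0.471 CPM per kb), TINF2 (14.1 ± 0.300), TERF2 (8.48 ± 0.245), ACD (6.07 ± 0.245), POT1 (5.79 ± 0.372), TERF1 (3.27 ± 0.131), PIF1 (1.48 ± 0.324), TERT (0.455 ± 0.173) and RTEL1 (0.247 ± 0.0735). Among neighbours in that order, ACD and POT1 were the pair whose ranges overlapped. The catalytic subunit was thus measured at a level per length far below that of its RNA-binding partner in these cells. In shTRIM22 irradiated libraries ACD stood below TERF1, at 2.49 ± 0.131 against 3.43 ± 0.392 CPM per kb. In shTRIM22 sham libraries TERT (1.47 ± 0.702) stood beside PIF1 (1.17 ± 0.422), with overlapping ranges.

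**Figure D1:**
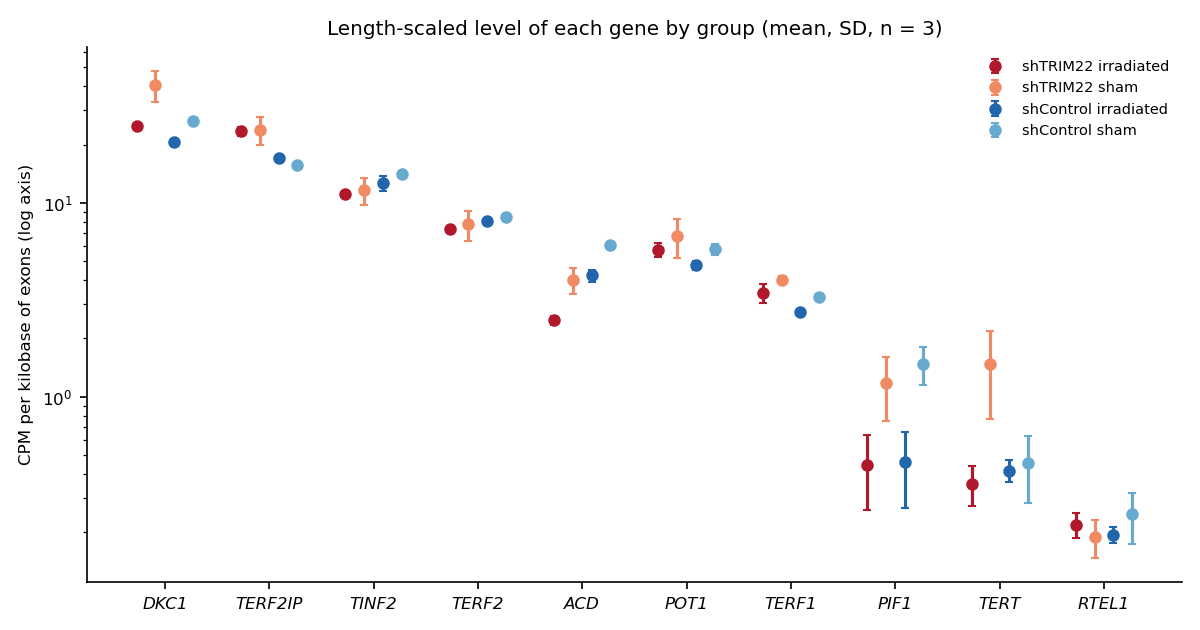
Mean level of each gene in CPM per kilobase of exons on a log axis, with SD as whiskers (n = 3), in the 4 groups; genes run from the highest to the lowest in shControl sham. DKC1 lies at 20.6 to 40.5 and RTEL1 at 0.189 to 0.247 CPM per kb, and TERT stands out in shTRIM22 sham at 1.47 CPM per kb.

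Irradiation in shTRIM22 cells lowered 4 members, TERT, DKC1, PIF1 and ACD, and irradiation in shControl cells lowered 3, DKC1, PIF1 and ACD (edgeR quasi-likelihood test, Benjamini-Hochberg adjusted p below 0.05 over 17094 genes, as for every call below). Of all tested genes 27.5% were called in shTRIM22 cells, 14.0% lower and 13.5% higher, and 18.2% in shControl cells, 7.53% lower and 10.6% higher. The median log2 fold change of the 10 members was -0.23 in shTRIM22 and -0.26 in shControl cells, where that of all tested genes was 0.00 and 0.01. No member was called higher after irradiation by edgeR, DESeq2 or limma voom, and 0 were higher at an unadjusted p below 0.05 in either population by any of the 3 tools. Knockdown without irradiation raised 4 members, TERT, DKC1, TERF1 and TERF2IP, and lowered TINF2 and ACD, 6 of 10 where 47.5% of all genes were called, 25.4% higher and 22.1% lower. Knockdown after irradiation raised TERF1, TERF2IP and DKC1 and lowered ACD, 4 of 10 where 35.6% of all genes were called, 17.6% higher and the rest, 3077 genes, lower. The knockdown counts are near these backgrounds. Groups did not overlap for 5 members with irradiation in shTRIM22 cells (39.5% of all genes), 6 with irradiation in shControl cells (41.4%), 7 with knockdown after irradiation (53.7%) and 6 with knockdown without it (53.0%). Each group enters 2 of these comparisons, so their values are set side by side and not correlated.

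**Figure D2:**
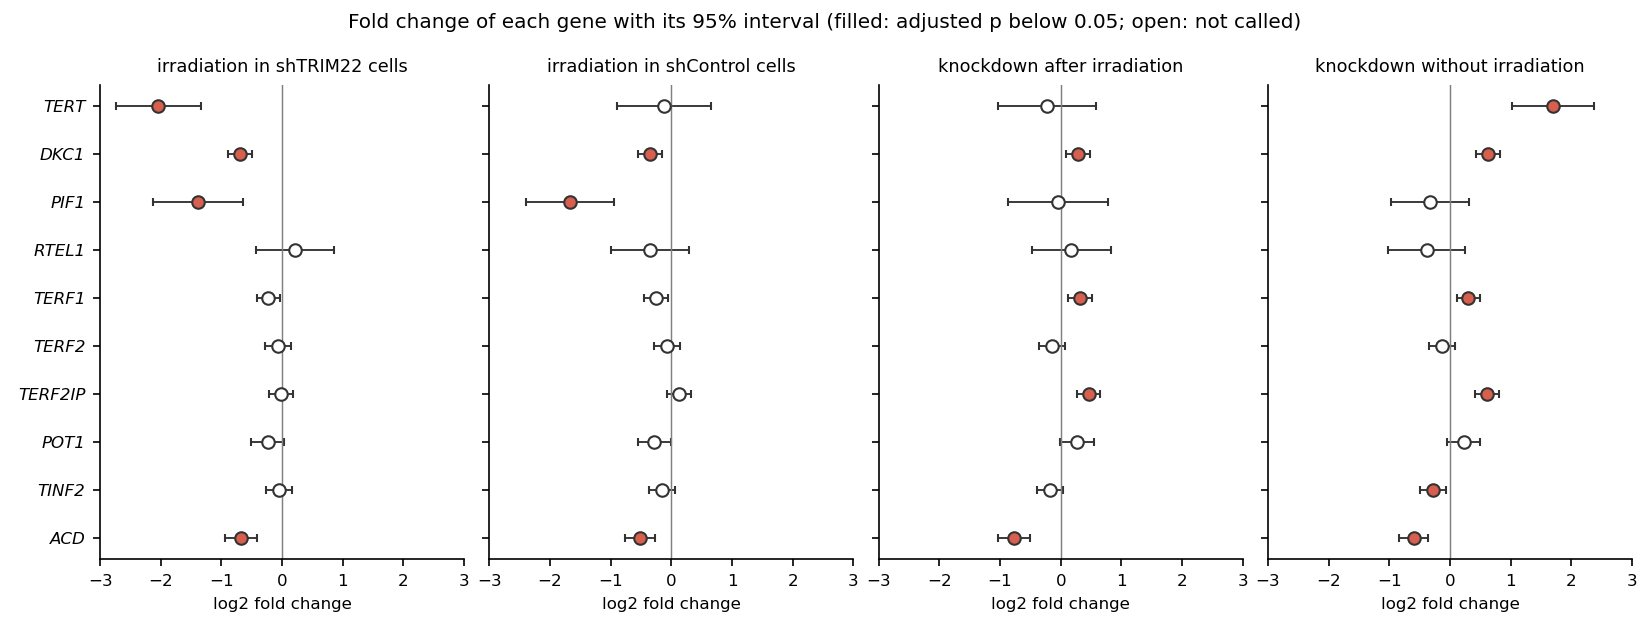
Log2 fold change of each gene in the 4 comparisons, as points with 95% intervals; filled points passed the test and open points did not. TERT is at -2.04 after irradiation in shTRIM22 cells and at -0.12 in shControl cells, PIF1 is at -1.39 and -1.68, and ACD lies below 0 in all 4 panels.

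TERT was highest in unirradiated shTRIM22 cells. It was at 1.23, 1.69 and 1.99 CPM in shTRIM22 irradiated libraries, against 4.29, 5.59 and 10.4 CPM in shTRIM22 sham libraries. It was at 2.05, 1.63 and 2.07 CPM in shControl irradiated libraries, against 1.63, 3.01 and 1.63 CPM in shControl sham libraries. Every shTRIM22 sham library lay above all other libraries, and the other 3 groups overlapped. These levels rest on few reads, 19 to 48 counts per library outside shTRIM22 sham and 79 to 178 within it.

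In shTRIM22 cells irradiation lowered TERT 4.11-fold (log2 fold change -2.04 ± 0.33 SE, adjusted p = 0.000338, edgeR), to 24.3% of the sham level. Without shTRIM22 sham replicate 3, the highest library, the fall was 3.00-fold (adjusted p = 1.12e-05). In shControl cells the change was -0.12 ± 0.36, which did not pass the test (adjusted p = 0.865), with a 95% interval from -0.89 to 0.65. Knockdown without irradiation raised TERT 3.24-fold (1.69 ± 0.32, adjusted p = 0.000408), or 2.37-fold without that library (adjusted p = 0.00012). After irradiation shTRIM22 and shControl cells did not differ past the threshold (-0.22 ± 0.38, adjusted p = 0.688, interval -1.03 to 0.58). The difference between the irradiation effects, shTRIM22 minus shControl, was -1.92 ± 0.50 with an interval from -2.97 to -0.86. It missed the threshold after adjustment (adjusted p = 0.0655, edgeR's quasi-likelihood test). It passed in DESeq2 (adjusted p = 0.0104) and without shTRIM22 sham replicate 3 (-1.47, adjusted p = 0.015), and missed in limma voom (adjusted p = 0.126). Across the 22 alternatives it missed the threshold in 16 and passed in 6. The adjusted p ran from 0.000143 to 0.164, and the value stayed below 0 in each. Leaving out shTRIM22 sham replicate 3 counts among the passes also with the compared groups alone, which for this difference is the same fit.

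TERC, the RNA template of telomerase, has no poly(A) tail in its mature form and gave 5 counts in total. It had 3 in shTRIM22 sham replicate 1 and 1 each in shControl sham replicates 1 and 2, and it was not tested.

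DKC1 changed in all 4 comparisons, lower with irradiation and higher with knockdown. It was at 105, 108 and 103 CPM in shTRIM22 irradiated libraries, against 161, 146 and 204 CPM in shTRIM22 sham libraries. It was at 84.6, 89.9 and 85.0 CPM in shControl irradiated libraries, against 108, 108 and 116 CPM in shControl sham libraries. None of the 4 pairs of groups compared overlapped. With irradiation DKC1 fell 1.62-fold in shTRIM22 cells (-0.70 ± 0.09, adjusted p = 5.12e-05) and 1.28-fold in shControl cells (-0.36 ± 0.09, adjusted p = 0.0129). With knockdown it rose 1.54-fold without irradiation (0.62 ± 0.09, adjusted p = 3.62e-05) and 1.22-fold after it (0.28 ± 0.09, adjusted p = 0.0258). Without shTRIM22 sham replicate 3 the fold in shTRIM22 cells was 1.46 lower with irradiation, and knockdown without irradiation gave 1.39 higher. The call after irradiation of shControl cells was lost without shControl sham replicate 3 (adjusted p = 0.0569), without shControl irradiated replicate 1 (adjusted p = 0.0552) or without shControl irradiated replicate 3 (adjusted p = 0.0526). The call for knockdown after irradiation was lost in 4 alternatives that left out 1 irradiated library each (shControl replicate 1 or 3, shTRIM22 replicate 1 or 2). The difference between the irradiation effects was -0.34 ± 0.13 and did not pass (adjusted p = 0.196). It was -0.19 without shTRIM22 sham replicate 3 (adjusted p = 0.126), and it passed without shTRIM22 sham replicate 2 (-0.44, adjusted p = 0.0285). The gene hosts SNORA36A, SNORA56 and MIR664B, small RNAs with 0 counts in this table.

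**Figure D3:**
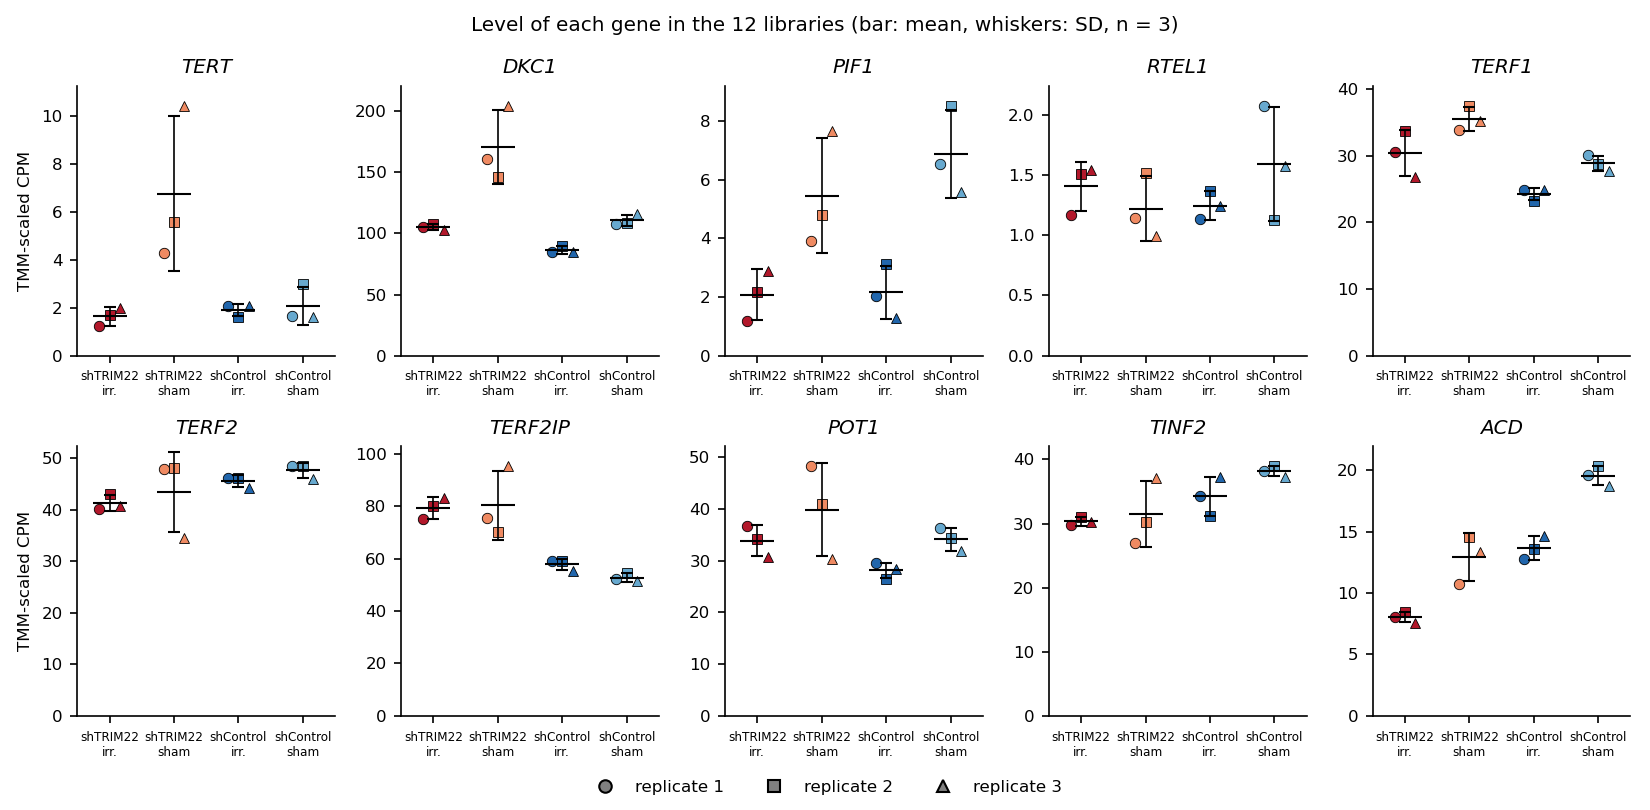
Level of each gene in TMM-scaled CPM in the 12 libraries, grouped as shTRIM22 irradiated (irr.), shTRIM22 sham, shControl irradiated and shControl sham; symbols give the replicate, bars the mean and whiskers the SD. The TERT points of shTRIM22 sham (4.29 to 10.4 CPM) lie above all others, the PIF1 points of irradiated cells (1.17 to 3.12 CPM) lie below all sham points (3.91 to 8.53 CPM), and ACD is lowest in shTRIM22 irradiated and highest in shControl sham libraries.

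PIF1 was lower in irradiated cells of both populations. It was at 1.17, 2.17 and 2.90 CPM in shTRIM22 irradiated libraries, against 3.91, 4.80 and 7.68 CPM in shTRIM22 sham libraries. It was at 2.05, 3.12 and 1.30 CPM in shControl irradiated libraries, against 6.54, 8.53 and 5.57 CPM in shControl sham libraries. All 6 irradiated libraries lay below all 6 sham libraries, on 18 to 48 counts per irradiated and 72 to 136 counts per sham library. The fall was 2.61-fold in shTRIM22 cells (-1.39 ± 0.35, adjusted p = 0.00819) and 3.19-fold in shControl cells (-1.68 ± 0.34, adjusted p = 0.00304). Without shTRIM22 sham replicate 3 the fall in shTRIM22 cells was 2.09-fold (adjusted p = 0.00822). The 2 effects did not differ past the threshold (0.29 ± 0.49, adjusted p = 0.808), with an interval from -0.77 to 1.34. Knockdown gave -0.04 ± 0.39 after irradiation (adjusted p = 0.947) and -0.33 ± 0.30 without it (adjusted p = 0.389). Without shTRIM22 sham replicate 3 the second of these was called lower (-0.66, adjusted p = 0.0429).

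With irradiation most proliferation genes fell beside PIF1, DKC1 and ACD. Of the 12 listed, 11 fell in shTRIM22 cells with irradiation (median log2 fold change -1.20) and 11 fell and 1 rose in shControl cells (median -0.85), where the median of all tested genes was 0.00 and 0.01. Of all tested genes 14.0% fell in shTRIM22 and 7.53% in shControl cells. MKI67, the Ki-67 marker of cycling cells, was at 44.1 ± 5.44 CPM in shTRIM22 irradiated and 89.4 ± 11.2 CPM in shTRIM22 sham libraries, and at 46.1 ± 8.43 CPM in shControl irradiated and 102 ± 15.1 CPM in shControl sham libraries (SD, n = 3). The whole list summed to 606 to 615 CPM in shTRIM22 irradiated and 908 to 1099 CPM in shTRIM22 sham libraries, and to 768 to 808 CPM in shControl irradiated and 829 to 974 CPM in shControl sham libraries. PCNA, the sliding clamp and also a p53 target, was the 1 that rose in shControl cells (0.44). Of the listed genes it gave the largest part of the sum in every library. Its level was 483 to 536 CPM in shControl irradiated and 370 to 371 CPM in shControl sham libraries. In shTRIM22 libraries PCNA reached at most 372 CPM with irradiation and was at 354 to 438 CPM without it. The sum in shControl cells therefore understates the fall of the other 11 genes. Without irradiation knockdown raised 4 of the 12, among them CCNB1 (0.50 ± 0.15) and MCM5 (0.30 ± 0.09), and MKI67 was at -0.19 ± 0.14, not called. After irradiation knockdown raised 1, MCM2 (0.74 ± 0.20), and lowered 3, TOP2A (-0.68 ± 0.15), CENPF (-0.61 ± 0.17) and PCNA (-0.49 ± 0.07), with a median of -0.18 over the list. The part of proliferation in the levels of the telomere genes was not tested. In bulk RNA, fewer cycling cells and less RNA per cell cannot be told apart.

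RTEL1 gave 16 to 33 counts per library and changed in none of the comparisons. It was at 1.17, 1.51 and 1.54 CPM in shTRIM22 irradiated libraries, against 1.14, 1.52 and 1.00 CPM in shTRIM22 sham libraries. It was at 1.13, 1.37 and 1.24 CPM in shControl irradiated libraries, against 2.08, 1.13 and 1.58 CPM in shControl sham libraries. All groups overlapped. The log2 changes ran from -0.39 to 0.21, with intervals that reached from -1.02 to 0.86, so a change of up to about that size was not detectable at this depth. Of its exonic bases 70.2% are shared, on the same strand, with the readthrough gene RTEL1-TNFRSF6B, and how reads in shared bases were counted is not known, so the level of RTEL1 is uncertain. RTEL1-TNFRSF6B was at 4.19 ± 1.16 CPM in shTRIM22 irradiated and 2.69 ± 0.363 CPM in shTRIM22 sham libraries and rose with irradiation there (0.64 ± 0.21, adjusted p = 0.0339).

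Of the shelterin genes, ACD was the one called in all 4 comparisons, lower in each. It was at 8.06, 8.43 and 7.59 CPM in shTRIM22 irradiated libraries, against 10.8, 14.6 and 13.4 CPM in shTRIM22 sham libraries. It was at 12.7, 13.5 and 14.7 CPM in shControl irradiated libraries, against 19.6, 20.3 and 18.7 CPM in shControl sham libraries. Untreated control cells had the most and irradiated knockdown cells the least, while the groups with a single treatment overlapped each other. With irradiation ACD fell to 62.4% of the sham level in shTRIM22 cells (-0.68 ± 0.13, adjusted p = 0.000789) and to 69.9% in shControl cells (-0.52 ± 0.12, adjusted p = 0.00515). With knockdown it fell 1.70-fold after irradiation (-0.77 ± 0.13, adjusted p = 0.000154) and 1.52-fold without it (-0.60 ± 0.12, adjusted p = 0.00046). The 4 calls held in all 22 alternatives. The difference between the irradiation effects was -0.16 ± 0.17 (adjusted p = 0.666, interval -0.53 to 0.20). ACD shares 1.8% of its exonic bases with CARMIL2 on the other strand, which was at 1.15 to 1.82 CPM on average in the 4 groups and was not called in any comparison.

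TERF2IP, the gene of RAP1, was higher in shTRIM22 cells with or without irradiation. It was at 75.0, 80.0 and 83.3 CPM in shTRIM22 irradiated libraries, against 59.2, 58.9 and 55.3 CPM in shControl irradiated libraries. It was at 75.6, 70.2 and 95.2 CPM in shTRIM22 sham libraries, against 52.4, 54.5 and 51.4 CPM in shControl sham libraries. All 6 knockdown libraries lay above all 6 control libraries. The rise was 1.37-fold after irradiation (0.46 ± 0.09, adjusted p = 0.000949) and 1.52-fold without it (0.61 ± 0.09, adjusted p = 4.96e-05), or 1.38-fold without shTRIM22 sham replicate 3. Irradiation gave -0.02 ± 0.09 in shTRIM22 cells and 0.13 ± 0.09 in shControl cells, neither called. TERF2IP shares 5.21% of its exonic bases with KARS, a lysyl-tRNA synthetase gene on the other strand, which itself rose with knockdown without irradiation (0.22 ± 0.08, adjusted p = 0.0387).

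TERF1, which encodes TRF1, was modestly higher in knockdown cells. It was at 30.5, 33.7 and 26.8 CPM in shTRIM22 irradiated libraries, against 24.8, 23.2 and 24.8 CPM in shControl irradiated libraries. It was at 33.9, 37.4 and 35.2 CPM in shTRIM22 sham libraries, against 30.1, 28.8 and 27.7 CPM in shControl sham libraries. Neither pair of groups overlapped. The rise was 1.25-fold after irradiation (0.32 ± 0.09, adjusted p = 0.0117) and 1.23-fold without it (0.30 ± 0.09, adjusted p = 0.0118). The first of these calls was lost without shControl irradiated replicate 2 (adjusted p = 0.0544) or shTRIM22 irradiated replicate 2 (adjusted p = 0.0815). With irradiation TERF1 gave -0.23 ± 0.09 in shTRIM22 and -0.25 ± 0.09 in shControl cells, neither called (adjusted p = 0.0732 and 0.0738). Both were called without shTRIM22 sham replicate 3 (adjusted p = 0.0422 and 0.0213). The shControl comparison does not include that library, and its value stayed at -0.25. All 12 libraries share 1 estimate of the spread, so leaving out a library also changes the tests of groups it is not in.

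TERF2, which encodes TRF2, passed the test in none of the comparisons. It was at 40.2, 43.2 and 40.7 CPM in shTRIM22 irradiated libraries, against 47.9, 48.2 and 34.6 CPM in shTRIM22 sham libraries. It was at 46.2, 46.3 and 44.2 CPM in shControl irradiated libraries, against 48.5, 48.5 and 46.1 CPM in shControl sham libraries. The lowest of the 12 was shTRIM22 sham replicate 3. Without it, irradiation lowered TERF2 in shTRIM22 cells (-0.22, adjusted p = 0.0169), where the value over all libraries was -0.07 ± 0.10 (adjusted p = 0.633). TRF2 and RAP1 bind each other as proteins. Their transcripts did not move alike here: TERF2IP was called higher with knockdown and TERF2 was not called, at -0.14 ± 0.10 after irradiation and -0.13 ± 0.10 without it. The difference between the 2 genes was not tested.

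POT1, the single-strand binding subunit, was called or not depending on the fit. It was at 36.7, 34.2 and 30.8 CPM in shTRIM22 irradiated libraries, against 48.2, 40.9 and 30.3 CPM in shTRIM22 sham libraries. It was at 29.5, 26.5 and 28.3 CPM in shControl irradiated libraries, against 36.2, 34.3 and 31.8 CPM in shControl sham libraries. Again shTRIM22 sham replicate 3 was the lowest of its group. POT1 was not called in any of the 4 comparisons (adjusted p = 0.127 to 0.192). With no filter on low counts, or with the compared groups alone, 2 of the 4 passed, irradiation in shControl cells (adjusted p = 0.0352 and 0.00347) and knockdown after irradiation (adjusted p = 0.0485 and 0.00424). Without shTRIM22 sham replicate 3 POT1 passed in all 4. Irradiation gave -0.40 in shTRIM22 cells (adjusted p = 0.000251) and -0.28 in shControl cells (adjusted p = 0.00677). Knockdown gave 0.27 after irradiation (adjusted p = 0.00588) and 0.39 without it (adjusted p = 0.000148). Irradiation in shControl cells and knockdown after irradiation do not include that library. Their POT1 values were -0.28 and 0.27 with it too, and their tests share the estimate of spread with its group. POT1 shares 1.88% of its exonic bases with POT1-AS1 on the other strand, which was at 0.400 to 1.47 CPM on average in the 4 groups. POT1-AS1 rose with irradiation in shTRIM22 cells (1.85 ± 0.46, adjusted p = 0.00683) and fell with knockdown without irradiation (-1.30 ± 0.48, adjusted p = 0.0336). There POT1 had values of the opposite sign, not called over all libraries. Neither gene was called in the other 2 comparisons. The signs were opposite with irradiation in shControl cells (0.29 for POT1-AS1 and -0.28 for POT1) and alike with knockdown after irradiation (0.26 and 0.27). POT1-AS1 had 10, 6 and 5 counts in shTRIM22 sham libraries.

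TINF2 was lower in unirradiated knockdown cells, by a small margin. It was at 27.0, 30.3 and 37.1 CPM in shTRIM22 sham libraries, against 38.2, 38.9 and 37.3 CPM in shControl sham libraries. The groups did not overlap, but their nearest libraries, both replicate 3, differed by little. The fall was 1.21-fold (-0.28 ± 0.10, adjusted p = 0.0344), and 1.33-fold without shTRIM22 sham replicate 3 (adjusted p = 6.94e-05). The call was lost in 6 of 22 alternatives, which left out 1 other sham library each or fitted only the compared groups (adjusted p = 0.0593 to 0.18). After irradiation TINF2 was at 29.7, 31.0 and 30.2 CPM in shTRIM22 libraries and 34.2, 31.1 and 37.3 CPM in shControl libraries, and was not called (-0.18 ± 0.10, adjusted p = 0.21). Irradiation gave -0.05 ± 0.10 in shTRIM22 and -0.16 ± 0.10 in shControl cells, neither called.

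No member passed the edgeR test of the interaction, where 1.61% of all genes did, 0.521% with the higher and 1.09% with the lower value in shTRIM22 cells. The higher ones were 32.2% of these calls, 51.9% under upper quartile scaling and 44.1% without mitochondrially encoded genes. Of the 10, 2 had an unadjusted p below 0.05, TERT and DKC1, both with the larger fall in shTRIM22 cells. DESeq2 called 1, TERT, and limma voom 0. The 12 proliferation genes had a median difference of -0.47, where that of all tested genes was -0.02. Of these 12, edgeR called 1, PCNA (-0.57, adjusted p = 0.00968). A larger fall in shTRIM22 cells was thus not particular to TERT and DKC1. For the shelterin genes the differences between the irradiation effects lay between -0.16 and 0.10. Their lowest 95% bound was -0.53, for ACD, and their highest 0.43, for POT1.

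Other genes of the pathway were counted from lists that did not include the members. Of 15 tested genes of the telomerase RNA and its particle, 3 fell with irradiation in shTRIM22 cells and 2 in shControl cells, while 6 rose with knockdown after irradiation and 9 without it. Over all genes 14.0% fell with irradiation in shTRIM22 and 7.53% in shControl cells, while 17.6% rose with knockdown after irradiation and 25.4% without it. The list's medians in these 4 comparisons were -0.16, -0.15, 0.20 and 0.23, and the median of all genes lay within 0.02 of 0. WRAP53, which carries the telomerase RNA to Cajal bodies, fell with irradiation in both populations (-0.86 ± 0.16, adjusted p = 0.000762, in shTRIM22 and -0.50 ± 0.15, adjusted p = 0.0329, in shControl cells). GAR1, a partner of dyskerin in the particle, fell in shControl cells (-0.51 ± 0.17, adjusted p = 0.0433) and rose with knockdown after irradiation (0.65 ± 0.17, adjusted p = 0.0053) and without it (0.40 ± 0.16, adjusted p = 0.0476). NAF1, the assembly factor that GAR1 replaces, fell with irradiation in shTRIM22 cells (-0.44 ± 0.09, adjusted p = 0.00199) and rose with knockdown without irradiation (0.28 ± 0.09), and RUVBL2, an ATPase of its assembly, did likewise (-0.33 ± 0.08 and 0.21 ± 0.08). PINX1, a nucleolar inhibitor of telomerase, was at 5.76 ± 0.380 CPM in shTRIM22 irradiated and 3.66 ± 0.446 CPM in shControl irradiated libraries, and at 6.85 ± 1.23 CPM in shTRIM22 sham and 4.14 ± 0.340 CPM in shControl sham libraries. It rose with knockdown both after irradiation (0.65 ± 0.17, adjusted p = 0.00733) and without it (0.73 ± 0.17, adjusted p = 0.00176). TOE1, a nuclease that trims the ends of small RNAs, rose by 0.53 and 0.60, PARN, a deadenylase that matures the telomerase RNA, by 0.24 and 0.23, and TEP1, a telomerase-associated protein, by 0.29 and 0.42. SHQ1, a chaperone of dyskerin, rose with knockdown without irradiation (0.32 ± 0.10, adjusted p = 0.0116).

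The CST complex (CTC1, STN1 and TEN1) binds the overhang after telomerase and brings in DNA polymerase alpha with primase to fill the opposite strand. Of 6 tested genes of this list, 2 rose and 2 fell with irradiation in shTRIM22 cells, and 2 fell in shControl cells. The 2 that rose were STN1 (0.51 ± 0.11, adjusted p = 0.00351) and CTC1 (0.25 ± 0.08, adjusted p = 0.0234), and the 2 that fell were the polymerase and primase genes POLA1 (-0.61 ± 0.11, adjusted p = 0.000542) and PRIM1 (-0.73 ± 0.14, adjusted p = 0.00112). POLA1 (-0.49 ± 0.11) and PRIM1 (-0.93 ± 0.14) fell in shControl cells too. STN1 was at 39.3 ± 1.64 CPM in shTRIM22 irradiated and 27.7 ± 5.48 CPM in shTRIM22 sham libraries, and at 26.6 ± 0.436 CPM in shControl irradiated and 24.2 ± 1.45 CPM in shControl sham libraries. With knockdown STN1 (0.56 ± 0.11, adjusted p = 0.00103) and PRIM2 (0.50 ± 0.18, adjusted p = 0.0368) rose after irradiation, and POLA2 (1.09), PRIM2 (0.68) and POLA1 (0.40) rose without it. Over all genes 13.5% rose and 14.0% fell with irradiation in shTRIM22 cells, and 7.53% fell in shControl cells. The shares that rose were 17.6% with knockdown after irradiation and 25.4% without it.

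Of 21 accessory and repair factors of telomeres, 1 rose and 8 fell with irradiation in shTRIM22 cells, 2 rose and 3 fell in shControl cells, 3 rose and 3 fell with knockdown after irradiation, and 6 rose and 4 fell with knockdown without it. The knockdown counts, 6 of 21 after irradiation and 10 of 21 without it, stand beside 35.6% and 47.5% of all genes called. With irradiation 27.5% of all genes were called in shTRIM22 and 18.2% in shControl cells. BLM, the Bloom helicase, fell with irradiation by 1.65 on the log2 scale in shTRIM22 (adjusted p = 8.14e-06) and by 1.34 in shControl cells, and rose with knockdown without irradiation (0.71 ± 0.17). RIF1 (-0.40 ± 0.07), which directs repair and replication timing, and FEN1 (-0.67 ± 0.15), the flap endonuclease, fell with irradiation in shTRIM22 cells. NBN, a subunit of the MRN complex, fell with knockdown without irradiation (-0.35 ± 0.07, adjusted p = 0.000585). FBXO4, the F-box protein that marks TRF1 for degradation, was at 6.22 ± 0.741 CPM in shTRIM22 sham and 12.5 ± 1.05 CPM in shControl sham libraries (49.8% of the control level, adjusted p = 1.34e-05). It was at 5.10 ± 0.601 CPM in shTRIM22 irradiated and 6.71 ± 0.178 CPM in shControl irradiated libraries, so that irradiation of shControl cells lowered it (-0.89 ± 0.14, adjusted p = 0.000221) and knockdown after irradiation did too (-0.40 ± 0.15, adjusted p = 0.0435). SAMHD1, a dNTP hydrolase that also acts in end resection, rose in all 4 comparisons, by 0.44 and 0.48 with irradiation in shTRIM22 and shControl cells and by 0.79 and 0.83 with knockdown after irradiation and without it. WRN, a helicase of telomeric replication, fell with irradiation in shTRIM22 (-0.36 ± 0.09, adjusted p = 0.00673) and shControl cells (-0.37 ± 0.09, adjusted p = 0.00824) and rose with knockdown after irradiation (0.42 ± 0.09, adjusted p = 0.00174) and without it (0.40 ± 0.09, adjusted p = 0.00133). ATRX, a chromatin remodeller whose loss marks telomere maintenance without telomerase, fell with knockdown after irradiation (-0.35 ± 0.06, adjusted p = 0.000189) and without it (-0.24 ± 0.06, adjusted p = 0.00261). DCLRE1B, the Apollo nuclease that TRF2 recruits, rose with knockdown after irradiation (0.48 ± 0.15) and without it (0.59 ± 0.14), and fell with irradiation in shTRIM22 cells (-0.50 ± 0.14, adjusted p = 0.0168).

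**Figure D4:**
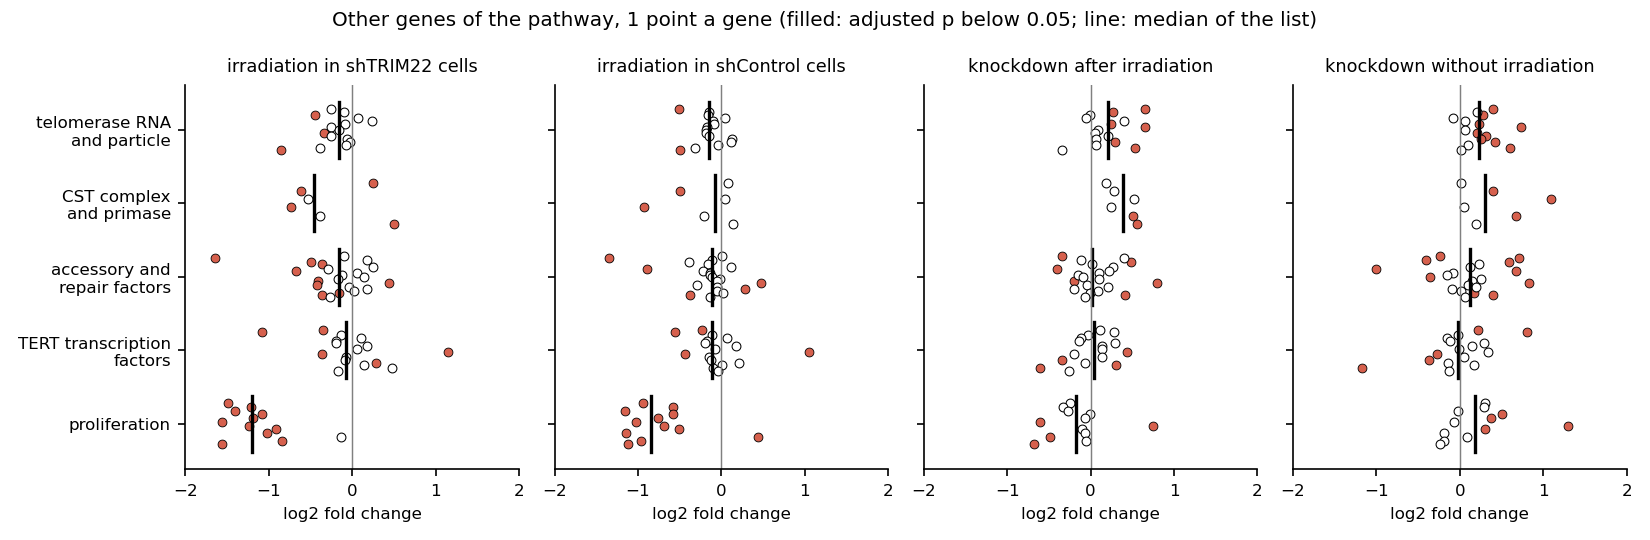
Log2 fold change of the other genes of the pathway and of the proliferation list, 1 point a gene, in the 4 comparisons; filled points passed the test and the black line is the list's median. The proliferation list lies to the left with irradiation (medians -1.20 in shTRIM22 and -0.85 in shControl cells), and most of the telomerase particle list lies right of 0 with knockdown (medians 0.20 and 0.23).

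Of 16 transcription factors known to act on TERT, 2 rose and 3 fell with irradiation in shTRIM22 cells and 1 rose and 3 fell in shControl cells. Of all genes 27.5% and 18.2% were called in these 2 comparisons. MYC, an activator of TERT, was at 65.4 ± 2.48 CPM in shTRIM22 irradiated and 84.0 ± 10.9 CPM in shTRIM22 sham libraries (-0.36 ± 0.09, adjusted p = 0.00786), and at 75.0 ± 4.54 CPM in shControl irradiated and 101 ± 9.64 CPM in shControl sham libraries (-0.44 ± 0.09, adjusted p = 0.0029). MXD1, which competes with MYC for MAX, rose with irradiation in both (1.15 ± 0.16 in shTRIM22 and 1.04 ± 0.17 in shControl cells) and with knockdown after irradiation (0.44 ± 0.16). CTCF fell with irradiation in both (-0.34 ± 0.07 in shTRIM22 and -0.23 ± 0.07 in shControl cells) and rose with knockdown without irradiation (0.22 ± 0.07). SP3 fell with knockdown after irradiation and without it (-0.34 and -0.37), and USF2 rose with knockdown after irradiation (0.30 ± 0.08). Without irradiation knockdown lowered MYC (-0.27 ± 0.09, adjusted p = 0.0205), in the comparison in which TERT rose. The groups overlapped, at 87.3, 92.8 and 71.8 CPM in shTRIM22 sham and 111, 102 and 91.3 CPM in shControl sham libraries. The lowest was shTRIM22 sham replicate 3, and this MYC call was not rerun without that library. E2F1 was at 14.4 ± 0.692 CPM in shTRIM22 irradiated and 30.5 ± 6.54 CPM in shTRIM22 sham libraries, and at 11.9 ± 1.07 CPM in shControl irradiated and 17.5 ± 1.80 CPM in shControl sham libraries. Its log2 changes were -1.08 ± 0.14 and -0.56 ± 0.14 with irradiation, both called, and 0.28 ± 0.14 (not called) and 0.80 ± 0.13 (adjusted p = 0.000113) with knockdown after irradiation and without it. WT1, described as a repressor of TERT, fell with knockdown after irradiation (-0.60 ± 0.19, adjusted p = 0.0219) and without it (-1.18 ± 0.20, adjusted p = 0.000112). For knockdown 2 of the 16 rose and 2 fell after irradiation, and 2 rose and 3 fell without it. Of all genes 35.6% and 47.5% were called in these 2 comparisons. The list's counts are near or below the shares over all genes.

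Some calls of listed genes were lost in part of the 22 alternatives, which were run for the genes of smallest p in each list and comparison. In irradiated shControl cells these were GAR1 (lost in 10), WRAP53 (6), CTCF (5), E2F1 (2) and WRN (1), and in irradiated shTRIM22 cells CTC1 (3) and RUVBL2 (1). With knockdown after irradiation they were MXD1 (7), PRIM2 (6), DCLRE1B (4), TOE1 (3), WT1 (2), CENPF (2) and PARN (1). With knockdown without irradiation they were CCNB1 (2), MCM5 (1), SHQ1 (1) and CTCF (1). Calls that held in all 22 also shifted in size. In irradiated shTRIM22 cells FEN1 ran from -0.79 to -0.42, WRAP53 from -1.02 to -0.59 and STN1 from 0.35 to 0.62. POLA2 ran from 0.77 to 1.32 with knockdown without irradiation. In shTRIM22 sham libraries FEN1 was at 42.8, 42.3 and 66.8 CPM, highest in replicate 3.

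Among 11970 other protein-coding genes with a mean of at least 2 CPM, the transcripts whose log2 level followed a member most closely over the 12 libraries were ranked by Pearson's coefficient, as a description of libraries that share groups and depth. For PIF1 they were DEPDC1B, the cyclin gene CCNA2 and UBE2M (0.945 to 0.946), and DEPDC1B and UBE2M were also among the first 3 by Spearman's coefficient. For TERT they included NUDT9 (0.958) and CENPW (0.955), neither of them among the first 3 by Spearman's. For DKC1 they were NASP (0.99), C6orf48 (0.99) and HNRNPA0 (0.98), and for ACD HCN3 (0.98), RDH13 (0.97) and HAL (0.97). For TERF2IP they were CLTA, PPP2R1A and SH3TC1 (0.98 to 0.99), for TERF1 SNX9, RHEBL1 and WDR12 (0.95 each), and for TINF2 ACTR5 (0.95), KIN (0.93) and PPM1L (0.92).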

How the data were processed

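For the 12 libraries the authors deposited raw counts of reads by gene. The submitters' processing notes list hg38 and DESeq2 1.20.0 and give no role for either. Aligner, counter and strand setting: not given in the sources used here. Where overlapping genes lie on opposite strands, their reads may therefore be mixed. Gene coordinates in the table matched GENCODE 29 for 58735 of 58735 genes, and 0 per-sample columns were left unused. The counts went into edgeR 4.0.16 (R 4.3.3) after filterByExpr by group (minimum count 10) and TMM scaling. One model held a mean for each of the 4 groups, the F-tests were robust quasi-likelihood tests, and p-values were Benjamini-Hochberg adjusted over 17094 genes. An SE is the log2 fold change divided by the square root of F. Levels are TMM-scaled CPM, per kilobase by the gene length in the table. The code was tested on simulated counts. Alternatives were RLE and upper quartile scaling, no filter, a minimum count of 30, DESeq2 1.42.0, limma 3.58.1 voom, the compared groups alone, no mitochondrially encoded genes, a replicate block, and each library left out. Leaving out shTRIM22 sham replicate 3 with the compared groups alone was added after seeing the data. Members and gene lists were chosen with earlier results of these data known. All members are named, with up to 4 called genes of smallest p per list and comparison, genes overlapping a member, and the 3 genes most like each called member, of which 1 for TERT is not reported here. Counts of 16 to 178 limit the precision for TERT, PIF1 and RTEL1.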

Additional observations from a re-analysis of the deposited data

How the results depend on the processing

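The members' values were recomputed under 22 alternatives. Of 1095 values, 1018 kept their direction and side of the threshold, 15 lost and 30 gained a call, and 32 changed sign. Some of these values repeat a fit. For the interaction the compared groups alone are the main fit. Leaving out shTRIM22 sham replicate 3 with the compared groups alone repeats the compared groups alone for irradiation in shControl cells and knockdown after irradiation. For the interaction it repeats leaving out that library. In the order irradiation in shTRIM22 cells, irradiation in shControl cells, knockdown after irradiation, knockdown without it and interaction, 4, 3, 4, 6 and 0 members were called. With the compared groups alone the counts were 4, 5, 5, 5 and 0, and without shTRIM22 sham replicate 3 they were 7, 5, 5, 8 and 1, also with the compared groups alone. DESeq2 and the absence of a filter each called 1 member, TERT, for the interaction. Leaving out each library gave 4 to 7, 2 to 5, 2 to 5, 5 to 8 and 0 to 2 members. Counts over all genes ranged from 3356 to 5389, 2135 to 5260, 5009 to 7943, 7047 to 8692 and 111 to 1185 in the same order. For the interaction 276 genes were called by edgeR, 754 without a filter and 578 by DESeq2. With the compared groups alone 2912 genes were called for irradiation in shTRIM22 and 5224 in shControl cells. Irradiation in shControl cells and knockdown after irradiation do not include shTRIM22 sham replicate 3. In the joint model they are tied to it by the shared filter, scaling and estimate of spread. The causes of the differing counts were not tested.

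None of the values that changed sign was called. TERF2IP after irradiation in shTRIM22 cells was 0.0103 under upper quartile scaling and 0.13 without shTRIM22 sham replicate 3 in the compared groups, where TINF2 was 0.0869, TERF2 with knockdown without irradiation 0.0023 and the interaction of POT1 -0.12. The interaction of TERF2 was 0.0013 with RLE and with DESeq2, 0.0435 with upper quartile scaling, 0.0034 without a filter, 0.0072 with voom and 0.0227 without mitochondrially encoded genes. With each library left out, TERT after irradiation in shControl cells ranged from -0.28 to 0.23. In irradiated shTRIM22 cells TERF2 ranged from -0.22 to 0.0030, TERF2IP from -0.10 to 0.12 and TINF2 from -0.15 to 0.0824. TERF2 with knockdown without irradiation ranged from -0.21 to 0.0135, and PIF1 with knockdown after irradiation from -0.33 to 0.33. Interactions ranged from -0.0606 to 0.13 for TERF1, -0.15 to 0.0681 for TERF2 and -0.12 to 0.21 for POT1.

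Libraries with the same replicate number correlated at most at 0.0942 in their deviations from the group means over all tested genes, so the numbers were not taken to pair them. Over the 13222 genes of at least 2 CPM, shTRIM22 sham with shControl sham gave 0.119, 0.0939 and 0.186, not every pair over 0.1, and the other pairs of groups gave at most 0.104. In 2 of the 6 pairs of groups all 6 libraries correlated best with their own number, a hint from the data and not from the design. With the replicate block 4, 3, 4, 6 and 0 members were called.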
